A study of Mus musculus with 6 samples.

Results

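The genes that copy DNA were followed in mouse fetal liver cells across 30 h of culture with erythropoietin, the growth factor of red cell precursors. They are 49 listed genes of the DNA replication machinery, chosen by symbol and matched to gene IDs through GENCODE M21 on the GRCm38 assembly. All 49 were found among the 54232 gene IDs of each count file, and all 49 were among the 16150 genes with enough counts to test. The rule takes the genes by name and uses no measured value, and they were sorted into 10 steps of replication. The 6 libraries hold RNA of C57/B6 cells from E13.5 fetal livers, sorted as negative for Ter-119, an antigen that erythroblasts gain as they mature. Day 0 stands for 3 libraries of the purified cells with no treatment, and 30 h for 3 libraries of cells cultured in erythropoietin medium, with the solvent DMSO added at 24 h for the last 6 h. The medium, the time in culture and the solvent change together between the groups, so their parts cannot be told apart. The labels do not say whether libraries within a group were made from separate litters or cultures, so the tests measure only the spread between these libraries.

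DNA replication starts at origins, where the origin recognition complex (ORC1 to ORC6) together with CDC6 and CDT1 loads the ring of MCM2 to MCM7, the helicase that later unwinds DNA. This loading, called licensing, happens in G1, and geminin (Gmnn) blocks it afterwards by binding CDT1. In S phase the kinase CDC7 with its activating subunit DBF4 phosphorylates MCM proteins, and CDC45 and the GINS complex join the ring to form the active helicase. Primase and DNA polymerase alpha then lay primers, and polymerases delta and epsilon copy the strands, held to DNA by the sliding clamp PCNA, which replication factor C (RFC) loads. In the fetal liver, erythroid progenitors divide rapidly while they mature, and the dividing ends before the nucleus is expelled.

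Depth, library spread and cell makeup bear on every value below. Library totals were 27754279 to 29949173 counts at day 0 and 19241780 to 24154481 at 30 h, and the members held between 160 counts (Fen1) and 28255 counts (Mcm5) in a single library. Together they took 0.967% to 0.995% of each day 0 library and 0.818% to 1.03% of each 30 h library. The 30 h libraries differed more among themselves, with a median coefficient of variation over the members of 18.3%, against 3.01% at day 0. Replicate 3 of 30 h stood apart from the other two, since on the counts of all genes its chi-square divided by the degrees of freedom was 88.6 and 48.8 against them, compared with 10.99 between replicates 1 and 2. The labels call the cells progenitors. All 9 erythroid markers rose, their summed level going from 1714 to 1868 CPM (a count scaled to the size of its library) at day 0 to 90497 to 129948 CPM at 30 h, and 7 of 8 stem and progenitor markers fell (713 to 763 CPM, then 208 to 265 CPM). Markers of hepatoblasts and of endothelial and mesenchymal cells were present at day 0 and their sums were lower at 30 h. All 9 hepatoblast markers fell, from 13802 to 15659 CPM summed down to 794 to 2292 CPM. The 7 endothelial markers fell as well (172 to 199 CPM, then 30.4 to 38.4 CPM), with Stab2 and Emcn at 0 in a 30 h library, and so did 6 of 7 mesenchymal markers (1472 to 1879 CPM, then 23.8 to 56.5 CPM). Of 7 macrophage markers 3 rose and 2 fell (197 to 218 CPM summed, then 145 to 217 CPM). Of 7 granulocyte and mast cell markers 3 rose and 3 fell, and their sum was higher at 30 h (3057 to 3160 CPM, then 3548 to 5547 CPM). Of 6 megakaryocyte markers 1 rose and 3 fell, with overlapping sums (534 to 631 CPM, then 560 to 956 CPM). Of 7 B lymphoid markers 4 fell and 0 rose (29.9 to 31.2 CPM, then 13.2 to 16.9 CPM). The part of this shift in cell makeup in the changes below was not tested. In bulk RNA, fewer cells of a type and less RNA per cell cannot be told apart.

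Levels below are CPM after TMM scaling, which sets libraries on the assumption that most genes do not change, and levels of different genes are compared as CPM per kilobase of exon. Changes are log2 of 30 h over day 0, each with its standard error (SE), and a change counts as passed when the edgeR quasi-likelihood test, adjusted over all 16150 genes by Benjamini-Hochberg, gave a p below 0.05. Of the 49 replication genes 30 rose, 3 fell and 16 did not pass, and the median change was 0.51. Among all genes tested 74.5% passed, 34.4% higher and 40.1% lower, with a median change of -0.09. The share of members that passed in either direction, 67.3%, lay below that background, while the share that rose, 61.2%, lay above the 34.4%. The groups did not overlap in 36 of the 49 members (73.5%, against 79.7% of all genes), 30 of them higher and 6 lower at 30 h. Of the 30 genes that rose, 13 were at least 2-fold higher. Among all 16150 genes tested, 5553 rose and 3324 of these were at least 2-fold higher.

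The split between rising and falling genes depended on how the libraries were scaled. With library totals alone, and no correction for makeup, 18 members rose and 15 fell. Among all 16150 genes, 3601 then rose and 8791 fell. The median change of all genes moved from -0.09 to -0.58, and that of the members from 0.51 to 0.02. The distance between the members' median and that of all genes was 0.60 under both scalings. A change of scaling moves all genes by nearly the same amount, so this distance could hardly differ between them. It was 0.43 with a minimum of 10 CPM, 0.53 without 30 h replicate 1 and 0.71 without 30 h replicate 3. Under both scalings 39 of 49 members lay above the median gene. The 17 members that rose under every one of 17 alternative settings were Orc1, Orc6, Gmnn, Gins1, Gins2, Gins3, Gins4, Cdc7, Dbf4, Prim1, Pole2, Pcna, Rfc3, Rfc4, Rpa3, Tipin and Wdhd1. Of the 3 that fell, Pold2 kept its call under each of them, although its change shrank to -0.31 with each library's trend over GC content removed. Pold1 and Timeless each lost the call under some of them.

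**Figure D1:**
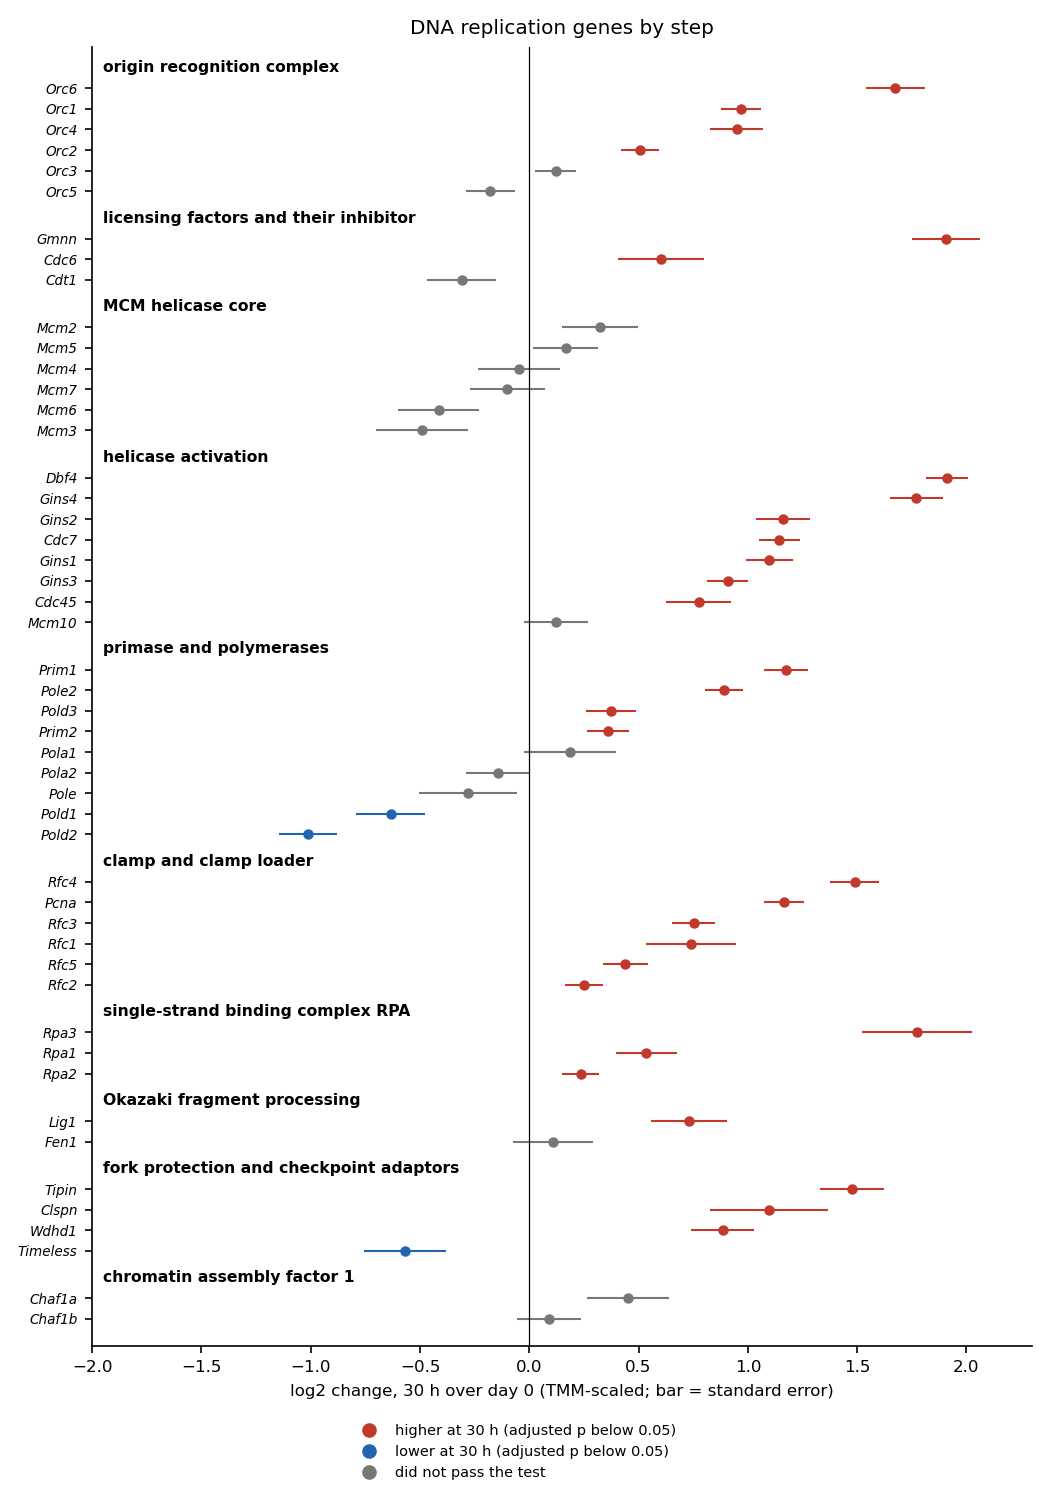
Log2 change of each of the 49 replication genes, 30 h over day 0, with its standard error, arranged by step. Points are red where the edgeR test called a gene higher, blue where lower and grey where it did not pass. Genes of helicase activation and of the clamp and its loader lie mostly to the right, the 6 MCM core genes lie around 0, and Pold2 lies farthest to the left at -1.01.

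The steps did not move alike. Every gene of the clamp and its loader (6 of 6) and of the single-strand binding complex RPA (3 of 3) rose, as did 7 of 8 genes of helicase activation, with median changes of 0.75, 0.54 and 1.12. With upper quartile scaling 4 of the 6 clamp and loader genes and 2 of the 3 RPA genes rose. With library totals alone 3 and 1 rose, and 1 fell in each step. Of the 6 origin recognition genes 4 rose (median 0.73), and of the 3 licensing genes 2 rose (median 0.60). None of the 6 MCM core genes passed, with a median of -0.07, and neither of the 2 genes of chromatin assembly factor 1 did. Primase and polymerases split, 4 of 9 rising and 2 falling (median 0.19). In the counts of all 49 members together, the MCM core took 41.6%, 41.9% and 41.4% in the day 0 libraries and 32.5%, 31.0% and 24.1% in the 30 h libraries. Helicase activation took 7.14% ± 0.125 at day 0 (SD, n = 3) and 12.3% ± 1.55 after 30 h of culture (SD, n = 3). The 30 h libraries were lower for the first and higher for the second in every case. These shares are made within a library, so no scaling of libraries enters them.

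**Figure D2:**
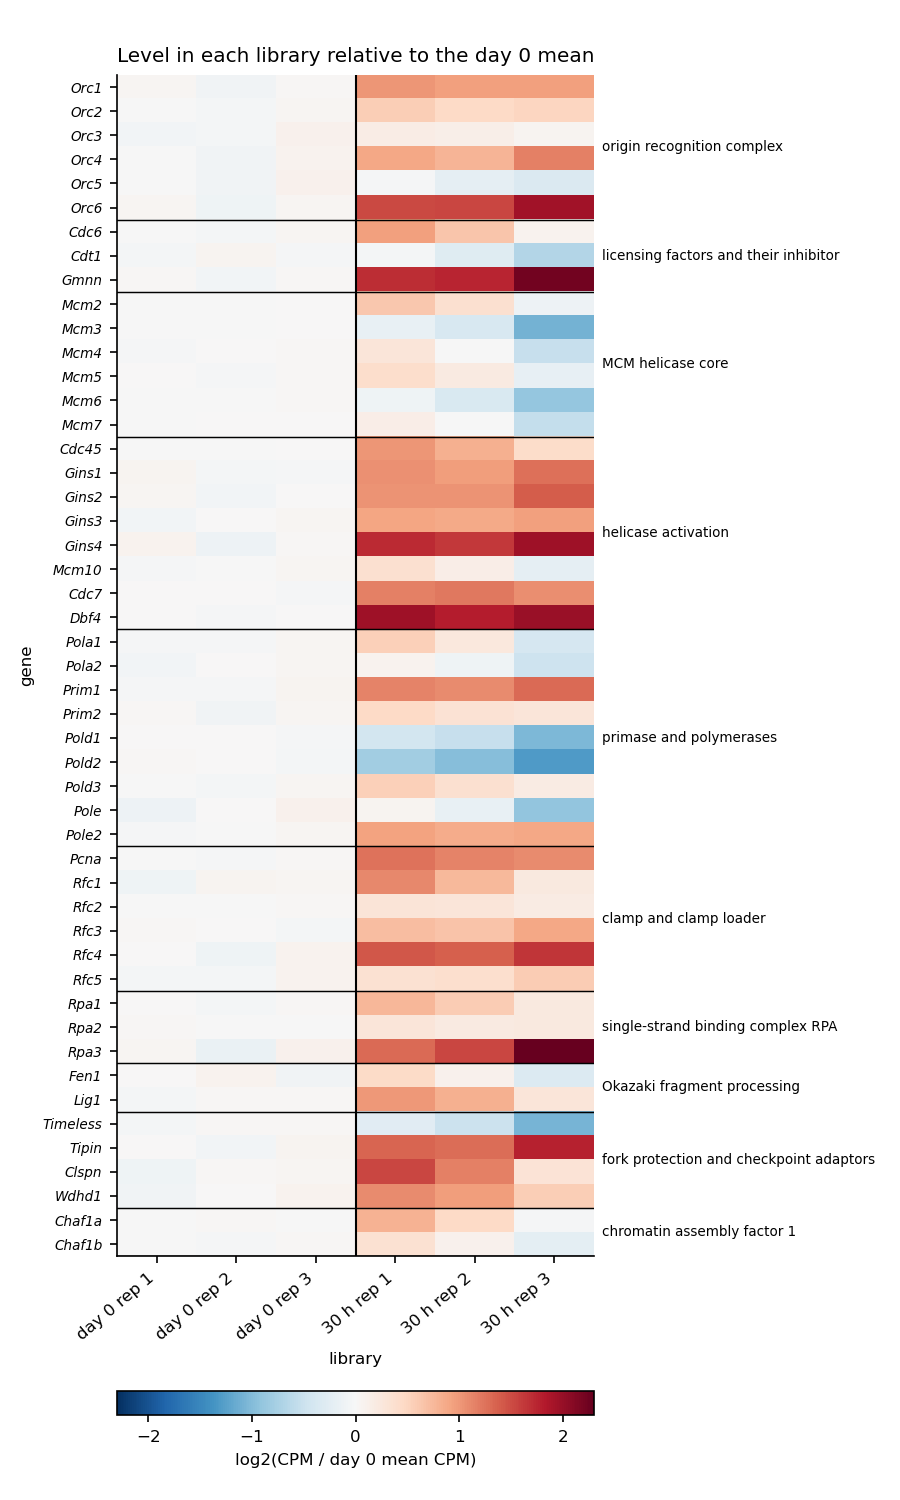
Heat map of each of the 49 genes (rows, by step) in the 6 libraries (columns), as log2 of the TMM-scaled CPM over the day 0 mean. Day 0 columns are near 0 throughout, and the column of 30 h replicate 3 differs from replicates 1 and 2. It is lowest of the 3 in 31 genes (63.3%, against 43.5% of all genes tested), among them all 6 MCM core genes.

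At the origin, the gene of the smallest subunit moved most. Orc6 stood at 102, 91.7 and 102 CPM at day 0 and at 282, 288 and 376 CPM at 30 h, every 30 h library above every day 0 library. It rose 3.19-fold (log2 1.68, SE 0.14, edgeR adjusted p = 1.83e-05), and it had the highest level per length of the 6 ORC genes in both groups, 39.99 and 128 CPM per kilobase. Orc1, whose product is the subunit that in dividing mammalian cells is degraded after S phase begins, rose 1.96-fold, from 34.2, 31.6 and 33.96 CPM to 67.1, 64.1 and 64.1 CPM (log2 0.97, SE 0.09). Orc4 (log2 0.95) and Orc2 (log2 0.51) rose as well. Orc3 did not pass, with 106, 107 and 118 CPM at day 0 and 124, 121 and 115 CPM at 30 h (log2 0.12, SE 0.09, edgeR adjusted p = 0.266). Nor did Orc5, with 78.8, 75.3 and 85.4 CPM followed by 78.5, 69.6 and 63.6 CPM (log2 -0.18, SE 0.11, edgeR adjusted p = 0.179). The groups overlapped for both. With library totals alone the Orc2 call was lost and Orc3 (log2 -0.37) and Orc5 (-0.67) were called lower, and with the GC trend removed the Orc4 call was lost (0.20) and Orc3 (-0.26) and Orc5 (-0.55) were called lower, the median of the 6 genes going from 0.73 to 0.28. Orc5 was also called lower with upper quartile scaling (-0.32) and with a minimum of 10 CPM (-0.29). Within each library the count ratio of Orc1 to Orc2 was 0.2499, 0.237 and 0.242 at day 0 and 0.332, 0.341 and 0.333 at 30 h, so the counts of the 2 genes changed unequally, by 0.47 on the log2 scale. Of the 3857 exonic bases of Orc2, 1150 overlap Nif3l1 on the other strand, and 376 of the 3479 of Orc1 overlap Gm12743. Their counts may therefore hold reads of those genes.

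Licensing factors and their inhibitor went apart. Gmnn, which encodes geminin, rose 3.75-fold, from 112, 106 and 113 CPM to 355, 368 and 514 CPM (log2 1.91, SE 0.16, edgeR adjusted p = 1.83e-05). Its target Cdt1 stood at 234, 251 and 235 CPM at day 0 and at 233, 199 and 149.8 CPM at 30 h. Every 30 h value lay below every day 0 value, by a small margin for 30 h replicate 1, and the change did not pass (log2 -0.31, SE 0.16, edgeR adjusted p = 0.108). Cdc6, the loader that works beside CDT1, rose 1.52-fold, from 109, 106 and 112 CPM to 210.3, 171 and 116 CPM (log2 0.60, SE 0.20, edgeR adjusted p = 0.0231). Its 3 values at 30 h spread widely, and replicate 3 lay barely above day 0. The Cdc6 call was lost when any day 0 library or 30 h replicate 2 was left out (log2 0.57 to 0.61), and with library totals alone (0.12). Cdt1 was called lower in 5 alternative settings, library totals alone (-0.80), upper quartile scaling (-0.46), no filter (-0.41), a minimum of 10 CPM (-0.42) and without 30 h replicate 1 (-0.41), and higher in 1, with the GC trend removed (0.39). The count ratio of Gmnn to Cdt1 within a library was 0.477, 0.421 and 0.478 at day 0 and 1.52, 1.86 and 3.43 at 30 h, 4.65-fold higher on average. Cdt1 counts thus exceeded Gmnn counts in every day 0 library, and Gmnn counts exceeded Cdt1 counts in every 30 h library. These counts are not divided by exon length, which is 3140 bases for Cdt1 and 1465 for Gmnn. Per kilobase of exon, Cdt1 and Gmnn were nearly level at day 0 (76.5 and 75.1 CPM) and stood at 61.7 and 281 CPM at 30 h. By longest transcript, Gmnn was already the higher at day 0 (97.6 against 89.1 CPM per kilobase). The ratio did not overlap between the groups, and a two-sided exact permutation test gave p = 0.1, the smallest that 3 against 3 libraries allow. The ratio of Cdc6 to Orc2 overlapped between the groups, from 0.797 to 0.80004 at day 0 and from 0.604 to 1.04 at 30 h.

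The MCM2 to MCM7 genes, whose products form a ring with 1 copy of each, held the largest share of the machinery's counts. None passed the test as fitted, and the 30 h libraries spread far more than the day 0 libraries in each of them. Mcm5 stood at 799, 785 and 809.6 CPM at day 0 and at 1059.5, 925 and 701 CPM at 30 h (log2 0.17, SE 0.15). Mcm2 stood at 541, 542 and 552 CPM and then at 840.5, 704 and 503 CPM (log2 0.32, SE 0.17). For both, 30 h replicates 1 and 2 lay above day 0 and replicate 3 lay below it. Mcm4 gave 337, 347 and 349 CPM and then 419.6, 343 and 238 CPM (log2 -0.05, SE 0.19), and Mcm7 gave 428, 435 and 435 CPM and then 483, 432 and 296 CPM (log2 -0.10, SE 0.17). These groups overlapped as well. Mcm3 gave 610.4, 609 and 614 CPM and then 544, 471 and 289 CPM (log2 -0.49, SE 0.21, edgeR adjusted p = 0.0627). Mcm6 gave 695, 700.3 and 713 CPM and then 654, 549.8 and 377 CPM (log2 -0.42, SE 0.18, edgeR adjusted p = 0.072). In these 2 genes every 30 h library lay below every day 0 library. Without 30 h replicate 3, the edgeR test called Mcm2 (log2 0.51) and Mcm5 (0.32) higher and Mcm3 (-0.26) and Mcm6 (-0.22) lower. With library totals alone Mcm3 (-0.98), Mcm6 (-0.90), Mcm7 (-0.59) and Mcm4 (-0.53) were called lower, and with each library's trend over GC content removed Mcm2 (0.67) and Mcm5 (0.41) were called higher. Mcm3 was called lower in 8 of the 17 alternative settings and Mcm6 in 6, both also with upper quartile scaling (-0.65 and -0.57), no filter (-0.59 and -0.52), a minimum of 10 CPM (-0.61 and -0.53) and without 30 h replicate 1 (-0.63 and -0.55). The DESeq2 test called Mcm3 lower (-0.45) and Mcm2 higher (0.37), and the replicate block called Mcm3 lower (-0.54).

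The mixture of the 6 MCM transcripts shifted even though no gene passed. As a share of their summed CPM per kilobase within a library, Mcm2 took 9.96%, 9.97% and 9.99% at day 0 and 13.47%, 13.1% and 13.4% at 30 h. Mcm5 took 25.6%, 25.1% and 25.5%, and then 29.6%, 30.1% and 32.6%. Mcm3 took 20.7% ± 0.118 and then 15.6% ± 1.12, and Mcm6 took 19.2% ± 0.0696 and then 15.3% ± 0.312 (SD, n = 3 each). For these 4 genes the groups did not overlap, including replicate 3 of 30 h, whose summed MCM level was the lowest. The shares of Mcm4 and Mcm7 overlapped between the groups. With the longest transcript as the length in place of all exons, the 4 directions were as before, although the shares themselves differed, Mcm2 going from 16.0% to 20.8%, and Mcm7 then no longer overlapped (15.01% and 14.5%).

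**Figure D3:**
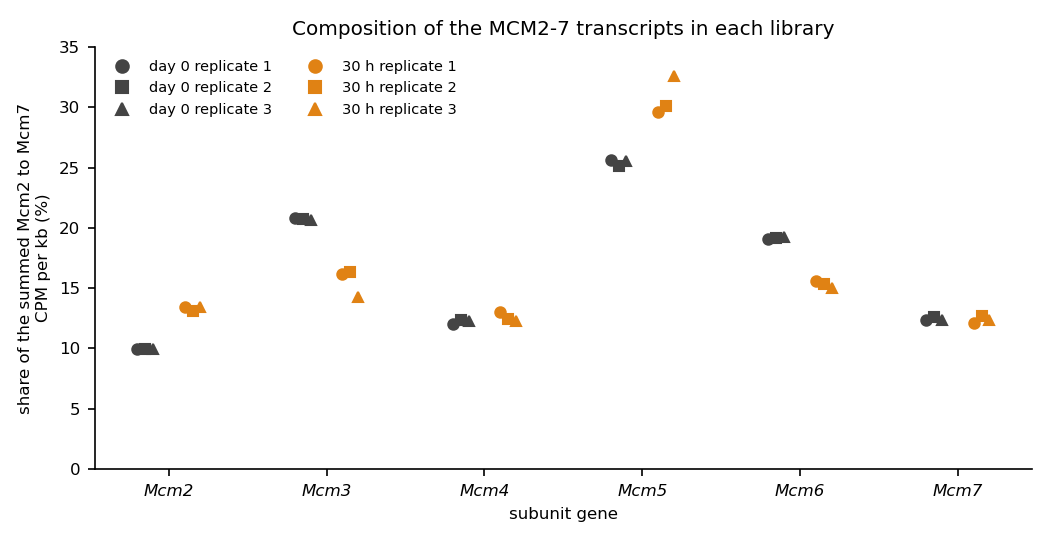
Share of each of the 6 MCM genes in their summed CPM per kilobase, in percent, for each of the 3 day 0 and 3 30 h libraries. The 30 h points of Mcm2 and Mcm5 lie above their day 0 points, those of Mcm3 and Mcm6 lie below, and those of Mcm4 and Mcm7 overlap.

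Of the genes that turn the loaded ring into a moving helicase, 7 of 8 rose, Mcm10 being the exception. Dbf4, the activating subunit of the CDC7 kinase, showed the largest change of all 49 members as fitted. It went from 89.2, 87.7 and 90.0 CPM to 342, 309.8 and 353 CPM, 3.76-fold (log2 1.91, SE 0.10, edgeR adjusted p = 1.8e-06). Its lead over Gmnn (log2 1.91, SE 0.16) was smaller than either SE. With the GC trend removed Dbf4 changed by 1.63, less than Gmnn (2.01), Gins4 (1.96) and Orc6 (1.71). Cdc7 itself went from 29.3, 29.1 and 28.6 CPM to 64.6, 66.9 and 60.9 CPM (log2 1.14, SE 0.09). The ratio of Dbf4 to Cdc7 counts was 3.04, 3.02 and 3.14 at day 0 and 5.28, 4.63 and 5.80 at 30 h, so the subunit rose beyond its kinase by 0.77 on the log2 scale. All 4 GINS genes rose. Gins4 had the highest level per length of the step in both groups, 63.7 and 217 CPM per kilobase, and went from 91.4, 79.3 and 87.2 CPM to 283, 264 and 333 CPM (log2 1.77, SE 0.12, edgeR adjusted p = 7.74e-06). Gins2 (log2 1.16), Gins1 (1.10) and Gins3 (0.91) followed, and no 30 h library overlapped day 0 in any of the 4. Of the 4097 exonic bases of Gins2, 2758 overlap Gse1 on the other strand, so its counts may hold reads of that gene. Cdc45 rose 1.71-fold, from 85.1, 84.8 and 86.3 CPM to 173, 149.8 and 115 CPM (log2 0.77, SE 0.15), a call lost with library totals alone (0.29). Mcm10, which helps start unwinding, did not pass, with 118, 121 and 125 CPM and then 156, 134 and 105 CPM (log2 0.12, SE 0.15, edgeR adjusted p = 0.477). Without 30 h replicate 3 it was called higher (0.27), and 8 of the 8 genes then rose. The GINS genes, whose products form 1 complex of 4 subunits, rose in all libraries, while the MCM genes of the ring that the complex joins did not pass.

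**Figure D4:**
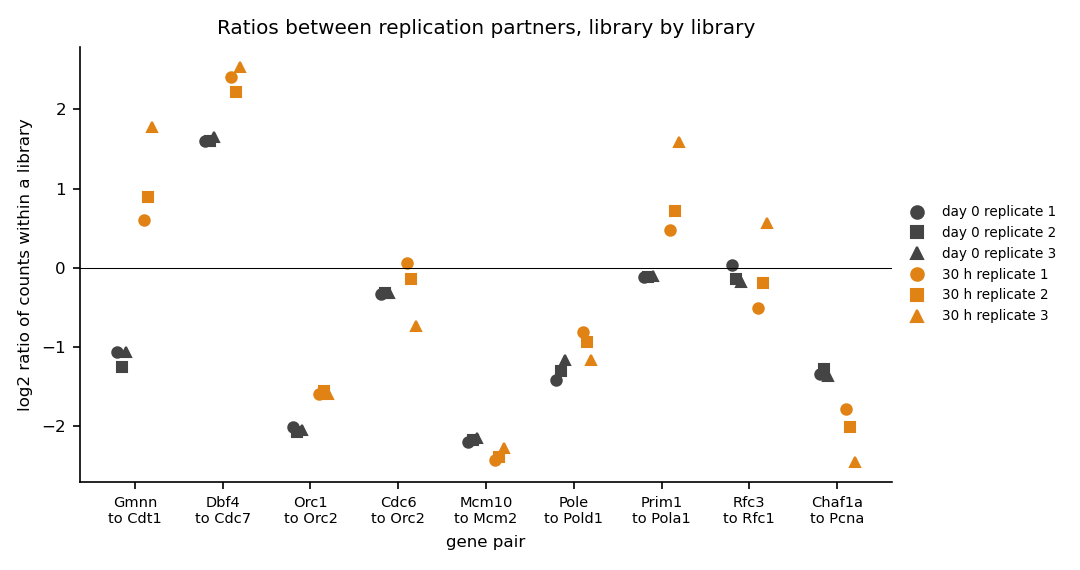
Count ratios of 9 gene pairs within each library on a log axis, day 0 against 30 h, 1 point per library. Counts are not divided by gene length. The Gmnn to Cdt1 ratio of counts crosses 1 between the groups, and the groups overlap for Cdc6 to Orc2 and for Rfc3 to Rfc1.

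Promoter sequences were examined for the E2F motif, the element through which E2F factors are known to drive many replication genes at the start of S phase. RefSeq windows of 300 bases, 250 before to 50 after the gene start on GRCm38.p6, matched 40 of the 49 members. The letters searched were TTTCCCGC, TTTGGCGC, TTTCGCGC and TTTGCCGC on both strands. They occurred in 16 of the 40 member windows and in 744 of all 32851 windows (2.26%). Among the 16, 8 genes rose, 1 fell and 7 did not pass, with a median change of 0.28. Among the 24 without a match, 15 rose, 2 fell and 7 did not pass, with a median of 0.52. The CCAAT box, an element common in promoters of cell cycle genes, occurred in 23 of the 40 matched members (57.5%). It occurred in 41.1% of all genes and in 37.4% of all windows. The following are the 170 bases before the RefSeq start of 3 MCM genes that did not pass and 4 genes of other steps that rose, 5′ to 3′ on the gene's strand, with the E2F letters in capitals. The set shows matches in front of genes of both outcomes. Their positions are chr8:75109339-75109508 on the plus strand for Mcm5, chr1:128359706-128359875 on the minus strand for Mcm6, and chr5:138171884-138172053 on the minus strand for Mcm7. They are chr4:108579284-108579453 on the plus strand for Orc1, chr11:98907981-98908150 on the plus strand for Cdc6, chr8:95633389-95633558 on the plus strand for Gins3, and chr5:151651209-151651378 on the minus strand for Rfc3.
Mcm5: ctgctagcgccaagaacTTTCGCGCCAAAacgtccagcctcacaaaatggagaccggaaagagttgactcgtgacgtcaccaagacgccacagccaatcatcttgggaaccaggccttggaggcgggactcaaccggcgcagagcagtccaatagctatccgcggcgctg
Mcm6: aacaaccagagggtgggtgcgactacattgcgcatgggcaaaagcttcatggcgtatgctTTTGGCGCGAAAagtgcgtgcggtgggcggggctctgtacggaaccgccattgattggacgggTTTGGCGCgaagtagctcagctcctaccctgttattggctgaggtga
Mcm7: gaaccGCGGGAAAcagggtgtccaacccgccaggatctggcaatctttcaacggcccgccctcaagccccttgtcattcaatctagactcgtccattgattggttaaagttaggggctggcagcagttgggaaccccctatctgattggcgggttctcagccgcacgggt
Orc1: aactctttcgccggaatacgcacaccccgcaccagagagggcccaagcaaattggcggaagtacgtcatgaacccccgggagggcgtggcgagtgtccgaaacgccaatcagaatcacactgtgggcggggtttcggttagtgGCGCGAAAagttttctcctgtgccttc
Cdc6: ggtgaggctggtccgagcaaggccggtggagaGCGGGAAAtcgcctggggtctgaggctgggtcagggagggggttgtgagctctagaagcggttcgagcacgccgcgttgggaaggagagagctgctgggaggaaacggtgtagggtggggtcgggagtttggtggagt
Gins3: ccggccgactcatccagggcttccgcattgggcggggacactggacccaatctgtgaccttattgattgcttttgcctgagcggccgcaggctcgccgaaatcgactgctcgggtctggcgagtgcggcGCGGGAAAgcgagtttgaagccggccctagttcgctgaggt
Rfc3: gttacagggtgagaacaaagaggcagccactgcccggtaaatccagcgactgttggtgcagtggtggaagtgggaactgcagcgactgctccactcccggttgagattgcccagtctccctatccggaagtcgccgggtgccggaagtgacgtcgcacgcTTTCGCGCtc
In Mcm5 a pair of matches overlaps, so their capitals run together, and Mcm6 holds such a pair and a further single match. A match describes letters only, and binding was not measured here.

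Polymerase genes split by subunit. In the polymerase alpha and primase complex, which lays down the first stretch of each strand, the small catalytic primase subunit Prim1 rose 2.26-fold, from 94.3, 94.2 and 101 CPM to 211, 204 and 238 CPM (log2 1.18, SE 0.10, edgeR adjusted p = 2.07e-05). Prim2, its large subunit, rose by less (log2 0.36, SE 0.10), and its call was lost without day 0 replicate 2 (0.31) and with library totals alone (-0.13). The Prim2 call was also lost with no filter (0.26) and in the test against 1.5-fold. The catalytic subunit Pola1 did not pass, with 103, 102 and 108 CPM and then 152, 124 and 79.6 CPM (log2 0.19, SE 0.21, edgeR adjusted p = 0.441), and was called higher without 30 h replicate 3 (0.41). Its partner Pola2 gave 127, 135 and 138 CPM and then 142, 124 and 96.3 CPM (log2 -0.14, SE 0.14, edgeR adjusted p = 0.385). For both, 30 h replicate 3 lay below day 0 and replicate 1 above it. The ratio of Prim1 to Pola1 counts, 0.919 to 0.933 at day 0, was 1.39, 1.64 and 2.99 at 30 h. Pola2 was called lower with library totals alone (log2 -0.63) and with upper quartile scaling (-0.29).

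Polymerase delta, which copies the lagging strand, had the 2 falling genes of the step. Pold2, the accessory subunit that links the catalytic subunit to the rest of the enzyme, fell 2.02-fold, from 176, 173 and 168 CPM to 98.4, 87.0 and 70.1 CPM (log2 -1.01, SE 0.13, edgeR adjusted p = 0.000217). With each library's trend over GC content removed the change was -0.31 (edgeR adjusted p = 0.0443). It had the highest level per length of the 9 genes at day 0, 90.8 CPM per kilobase. Catalytic Pold1 fell from 211, 211 and 205 CPM to 156, 145 and 102 CPM (log2 -0.63, SE 0.16, edgeR adjusted p = 0.00658), and under the same removal its value was 0.28, not past the threshold. Pold3 rose by 0.37 on the log2 scale, a call lost without any one day 0 library, without 30 h replicate 2 (0.33 to 0.38) and with library totals alone (-0.12). The Pold3 call was also lost with no filter (0.28) and in the test against 1.5-fold. Of the leading strand polymerase epsilon, the catalytic Pole did not pass, with 79.1, 85.8 and 91.3 CPM and then 89.3, 76.0 and 45.6 CPM (log2 -0.28, SE 0.22, edgeR adjusted p = 0.281), and was called lower with library totals alone (-0.76). Its subunit Pole2 rose from 40.9, 41.1 and 42.7 CPM to 78.7, 75.2 and 77.4 CPM (log2 0.89, SE 0.09).

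Genes of the sliding clamp and its loader all rose in the test as fitted. Pcna went from 280.5, 276 and 286 CPM to 668, 621 and 599 CPM, 2.24-fold (log2 1.16, SE 0.09, edgeR adjusted p = 1.31e-05), and led the step per length with 117 and 262 CPM per kilobase. Reads of its processed copy Pcna-ps2 were few, between 41 and 74 counts a library. Rfc4 rose most, from 78.4, 73.0 and 82.7 CPM to 211, 201 and 245 CPM (log2 1.49, SE 0.11, edgeR adjusted p = 1.2e-05). Rfc3 (log2 0.75) and Rfc5 (0.44) rose with it, and Rfc2 rose by 0.25. Of the 6303 exonic bases of Rfc2, 952 overlap Lat2 on the other strand. The large subunit Rfc1 rose on average, from 60.4, 67.8 and 67.1 CPM to 141, 109.7 and 75.7 CPM (log2 0.74, SE 0.21, edgeR adjusted p = 0.0115), with replicate 3 again close to day 0. Under library totals alone Rfc2 was called lower (log2 -0.24), and the calls of Rfc1 (0.25) and Rfc5 (-0.05) were lost. The Rfc2 call was also lost without any one day 0 library or 30 h replicate 2 (0.23 to 0.25). It was lost as well with upper quartile scaling (0.12), no filter (0.16), a minimum of 10 CPM (0.15) and the replicate block. Upper quartile scaling also lost the Rfc5 call (0.31), and the test against 1.5-fold lost those of Rfc1, Rfc2 and Rfc5.

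RPA coats the single strands behind the helicase. Its smallest subunit Rpa3 rose most, from 49.95, 43.6 and 52.4 CPM to 119.8, 140.3 and 239.6 CPM (log2 1.77, SE 0.25, edgeR adjusted p = 0.000336), and by 1.03 with the GC trend removed. Rpa1, the main DNA-binding subunit, rose from 302, 291 and 305 CPM to 505, 447 and 349 CPM (log2 0.54, SE 0.14), and Rpa2 rose from 192, 188 and 189.6 CPM to 230.4, 218 and 222 CPM (log2 0.24, SE 0.09, edgeR adjusted p = 0.0345). The groups did not overlap for any of the 3, but with library totals alone Rpa1 did not pass (log2 0.05) and Rpa2 was called lower (-0.25). The Rpa2 call was also lost without any one day 0 library or 30 h replicate 2 (0.21 to 0.25). It was lost as well with upper quartile scaling (0.10), no filter (0.14) and a minimum of 10 CPM (0.13). The test against 1.5-fold lost the calls of Rpa1 and Rpa2. Per length, Rpa2 led at day 0 (63.5 CPM per kilobase) and Rpa3 at 30 h (147). Replicate 3 was the highest 30 h library for Rpa3 and the lowest for Rpa1.

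Okazaki fragments are finished by the flap nuclease FEN1 and DNA ligase 1. Lig1 rose 1.66-fold, from 267, 282 and 279.9 CPM to 555, 485 and 336 CPM (log2 0.73, SE 0.17, edgeR adjusted p = 0.00559), and this call was lost with library totals alone (0.24). Fen1 had the lowest level per length of all 49 members in both groups, with 12.6, 13.2 and 11.8 CPM at day 0 and 16.9, 13.4 and 10.1 CPM at 30 h (log2 0.11, SE 0.18, edgeR adjusted p = 0.612). Of its 2422 exonic bases 2039 overlap Gm10143 or Tmem258 on the other strand. If reads in such an overlap were not assigned to either gene, the Fen1 level is too low, and the sources used here do not give the counting rule.

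At the fork, Timeless and Tipin encode partners of 1 complex that steadies the moving fork, yet the 2 genes moved in opposite directions. Tipin rose 2.78-fold, from 154, 148 and 160.0 CPM to 388, 373 and 525 CPM (log2 1.48, SE 0.15, edgeR adjusted p = 4.68e-05). Timeless fell from 88.7, 93.3 and 93.5 CPM to 76.5, 65.0 and 43.8 CPM (log2 -0.57, SE 0.19, edgeR adjusted p = 0.0237). Every library followed these directions, but the Timeless call was lost when day 0 replicate 2, day 0 replicate 3 or 30 h replicate 2 was left out (-0.61 to -0.57), and with the GC trend removed (-0.25). Clspn, encoding the checkpoint adaptor claspin, rose from 51.4, 56.0 and 56.7 CPM to 159.6, 123 and 68.4 CPM (log2 1.10, SE 0.27), and Wdhd1, which ties polymerase alpha to the helicase, rose by 0.89. The 3 values of Clspn at 30 h covered more than a 2-fold range, and its call was lost with library totals alone (0.61).

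Chromatin assembly factor 1 places histones on the new strands through PCNA. Chaf1a, its large subunit, stood at 111, 114 and 111 CPM and then at 194, 155 and 109.9 CPM (log2 0.45, SE 0.19, edgeR adjusted p = 0.0593). Chaf1b stood at 82.7, 81.1 and 84.6 CPM and then at 105, 88.6 and 70.6 CPM (log2 0.09, SE 0.14, edgeR adjusted p = 0.591). Neither passed, and replicate 3 lay below day 0 for both. Without that replicate both were called higher, Chaf1a by 0.64 and Chaf1b by 0.23, as they were with the GC trend removed (0.70 and 0.31). With all libraries kept, Chaf1a was also called higher with DESeq2 size factors (0.49) and by the DESeq2 test (0.49). Chaf1b was called lower with library totals alone (-0.40). Of the 8854 exonic bases of Chaf1a, 4648 overlap Ubxn6 on the other strand. The count ratio of Chaf1a to Pcna was 0.388 to 0.413 at day 0 and 0.291, 0.249 and 0.183 at 30 h, lower in every 30 h library.

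The order of levels across the machinery changed between the groups. At day 0 the highest genes per kilobase were Mcm5 with 199.8 ± 3.14 CPM, Mcm3 with 163 ± 0.793 CPM, Mcm6 with 151 ± 1.96 CPM and Pcna with 117 ± 2.06 CPM (SD, n = 3), each separated from the next by more than the spread. At 30 h they were Gmnn with 281 ± 60.3 CPM, Pcna with 262 ± 14.7 CPM, Tipin with 229.5 ± 44.9 CPM, Mcm5 with 224 ± 45.4 CPM and Gins4 with 217 ± 26.4 CPM per kilobase. Each of these 5 differed from the next by less than the larger SD of the pair, so neighbours in this order were not separated. With the longest transcript as the length, a setting chosen for all 49 genes after seeing the data, Pcna (185 CPM per kilobase) stood above Mcm3 (178) and Mcm6 (161) at day 0, and at 30 h Pcna (415 ± 23.2) and Gmnn (366 ± 78.4) led, so the order depends on the length used. The lowest at day 0 by merged exons were Fen1 with 5.18, Orc4 with 5.83 and Cdc7 with 6.94 CPM per kilobase.

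Of the 9 count ratios between partners, 7 did not overlap between the groups, each with the smallest p the exact permutation test allows, 0.1, before any adjustment. Those ratios not yet given were Mcm10 to Mcm2, 0.219, 0.222 and 0.227 at day 0 and 0.186, 0.191 and 0.208 at 30 h, and Pole to Pold1, 0.375, 0.407 and 0.446 and then 0.571, 0.525 and 0.447. The last day 0 value and the last 30 h value of Pole to Pold1 are nearly equal. Rfc3 to Rfc1 overlapped, with 0.882 to 1.02 at day 0 and 0.705, 0.878 and 1.48 at 30 h.

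Transcript length and replicate 3 moved with the results. Of the members with under 2 kb of exon 6 of 7 rose and 1 fell, with a median change of 1.49, and of those over 6 kb 6 of 15 rose, 1 fell and 8 did not pass, with a median of 0.25. All tested genes showed medians of 0.50 and -0.29 in the same classes. In replicate 3 of 30 h, the median log2 of its level over the mean of replicates 1 and 2 was 0.28 for the short members and -0.47 for the long ones, against 0.24 and -0.28 for all genes. Across the 49 genes, the change correlated with log2 exon length at r = -0.41 (rho -0.37), with exon GC content at r = -0.53 (rho -0.49), and with the deviation of replicate 3 at r = 0.69 (rho 0.67). Genes are not independent replicates, all points share the same 6 libraries, and the change includes replicate 3, so these are descriptions. Without replicate 3 of 30 h, 36 members rose and 5 fell, and of all 16824 genes then tested 6233 rose and 7008 fell. The part of length, GC content and RNA quality in the members' changes was not tested.

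**Figure D5:**
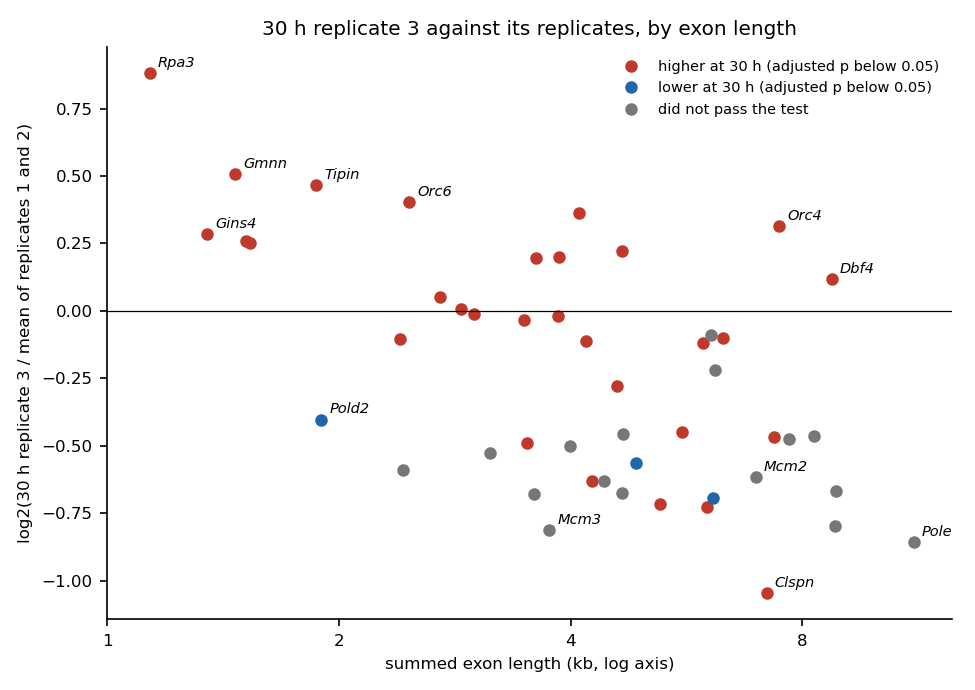
Log2 of the level in 30 h replicate 3 over the mean of 30 h replicates 1 and 2, against exon length on a log axis, for the 49 replication genes. Members under 2 kb lie mostly above 0 (median 0.28) and those over 6 kb mostly below (median -0.47).

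Another 34 genes of the replication pathway, listed by function, showed 23 rising, 5 falling and 6 not passing, with a median change of 0.81. Among all genes tested the shares were 34.4% higher and 40.1% lower, with a median of -0.09, and in this list 67.6% were higher. With library totals alone 15 rose and 8 fell, against 3601 and 8791 of all 16150 genes. The largest rises were those of Donson, a factor of helicase assembly, from 30.8, 32.0 and 32.9 CPM to 144, 133 and 139 CPM (log2 2.12, SE 0.09, edgeR adjusted p = 1.12e-06), and of the small polymerase subunits Pole4 (log2 2.06, SE 0.19) and Pold4 (log2 1.84). The largest falls were those of Chtf8, a subunit of an alternative clamp loader, from 232, 224 and 231 CPM to 123, 109.6 and 74.5 CPM (log2 -1.16, SE 0.18, edgeR adjusted p = 0.0005), of the MCM-binding protein gene Mcmbp (log2 -0.74, SE 0.11) and of Ssrp1, a subunit of the histone chaperone FACT (log2 -0.64, SE 0.15). No library of one group overlapped the other for any of these 6 genes.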

How the data were processed

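Each of the 6 libraries has a file of gene counts as the authors deposited them, in whole numbers. Per the submitters' processing notes, the tools were cutadapt 1.13, STAR, HTSeq 0.6.1p1 and DESeq2 with genome build mm10, and no strand setting is given there. The members and gene lists were chosen with earlier results of these data known. Genes were kept by edgeR's filterByExpr defaults, scaled by TMM and tested with edgeR 4.0.16 (R 4.3.3), quasi-likelihood and robust, over 16150 genes with p-values adjusted by Benjamini-Hochberg and called below 0.05. Library totals ranged from 19241780 to 29949173 counts, with TMM factors of 1.18 to 1.19 at day 0 and 0.82 to 0.87 at 30 h. CPM uses the scaled totals, and CPM per kilobase uses all exons of a gene merged. The biological coefficient of variation was 5.27% within day 0 and 20.3% within 30 h. Count ratios within a library were tested by exact permutation, two-sided, in scipy 1.17.1. All 49 members are named. Values in every sample are given at least for those with the largest rise, the largest fall and the highest level per length of a step and for each member that did not pass, and of other pathway genes those with the 3 largest rises and the 3 largest falls among the called are named. On simulated data (15712 genes), 32.8%, 85.7% and 100% of genes changed 1.5-fold, 2-fold and 4-fold were called, and 7 unchanged genes were. The simulation gave all genes and both groups the same spread and changed few genes, unlike these libraries, so the rates are not those of these data. Alternatives were 4 other scalings, 2 other filters, DESeq2 1.42.0, limma 3.58.1, a test against 1.5-fold, a replicate block, removal of the GC trend, and each library left out.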

Additional observations from a re-analysis of the deposited data

How the results depend on the processing

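Of the 30 members that rose, 17 passed in all 17 alternative settings. The number that rose was 18 with library totals only and 19 against a 1.5-fold change, and 25 to 36 with 1 library left out. The number that fell was 15 with totals only, 8 with the upper quartile, 6 with no filter, 7 with a minimum of 10 CPM, 1 against 1.5-fold, and 2 to 6 with 1 library left out. Of all 16150 genes, 3601 rose and 8791 fell with totals only, and 3816 rose and 4873 fell against 1.5-fold. Of the other 34 replication factors 15 rose and 8 fell with totals only, and 1 fell against 1.5-fold. Signs turned with totals only for Orc3 (-0.37), Mcm2 (-0.16), Mcm5 (-0.32), Mcm10 (-0.37), Pola1 (-0.30), Prim2 (-0.13), Pold3 (-0.12), Rfc2 (-0.24), Rfc5 (-0.052), Rpa2 (-0.25), Fen1 (-0.38), Chaf1a (-0.036) and Chaf1b (-0.40). With the upper quartile they turned for Orc3 (-0.015), Mcm10 (-0.03), Fen1 (-0.045) and Chaf1b (-0.058), with a minimum of 10 CPM for Fen1 (-0.0059) and Chaf1b (-0.022), and with no filter for Chaf1b (-0.0080). Removing the GC trend turned Orc3 (-0.26), Pola1 (-0.17), Cdt1 (0.39), Mcm7 (0.081), Pola2 (0.088) and Pold1 (0.28). With 1 library left out, Mcm4 ranged from -0.19 to 0.15, Mcm7 from -0.20 to 0.084, Fen1 from -0.038 to 0.28, the log2 ratio of Cdc6 to Orc2 from -0.11 to 0.28 and that of Rfc3 to Rfc1 from -0.25 to 0.29. The cause was not tested, except that a library left out also lowers the number of samples. With the replicate number as a block 28 members rose and 4 fell, Rfc2 and Rpa2 no longer passing and Mcm3 now lower. Same-numbered libraries deviated with correlations of -0.105, 0.105 and -0.029, and not every library correlated best with its own number. Such values cannot show whether same-numbered libraries were paired, and the labels do not say. The spread of the 30 h libraries limits precision, and the part of depth was not tested.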
